A study of Mus musculus with 6 samples.

Results

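The expression of 10 genes of the striated muscle sarcomere was examined in megakaryocyte progenitors, precursors of the platelet-producing cells of the bone marrow, after deletion of Scl. They were Tnni1, Tnni3, Tnnt1, Tpm2, Myo18b, Myom1, Actn3, Csrp3, Nrap and Cryab, and they were chosen as a named list with the difference between the 2 groups already known, so that difference is given for them as a description and without a test. They were 10 of 17711 genes named on the array. All 13 probes annotated to them were taken, out of 46632 probes on the array and 29976 with 1 gene symbol; 7 genes had 1 probe and Tpm2, Csrp3 and Actn3 had 2. Of the 13 probes, 12 were above background on at least 1 array, 11 on at least 3 arrays and 6 on all 6.

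The tested cells carried TGPF4-CRE and SCL fl/fl, in which the design text describes Scl as completely excised, and the control cells carried TGPF4-CRE and SCL wt/wt; they are called fl/fl and +/+ here, as in the sample titles. Cre therefore ran under the promoter of Pf4, a platelet chemokine gene, in both groups. Total RNA of sorted cells from the bone marrow of 129SVxC57Bl/6 mice of 3 to 4 months was hybridised to Illumina bead arrays, with 3 arrays per genotype. Whether the 3 samples of each genotype are separate mice, pools or repeat preparations is unstated, so a p-value here reflects only how far these arrays scatter, and part of that scatter may be technical. Levels are the normalized log2 signals as the authors deposited them, and a probe was called above background where its detection p was under 0.05. In bulk samples, more cells that express a gene and more RNA per cell cannot be told apart.

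The arrays showed megakaryocyte lineage RNA, since all 9 genes with a probe among 10 megakaryocyte markers were above background on at least 1 array, among them Pf4 at 12.43, 12.13 and 12.23 on fl/fl arrays 1, 2 and 3 and at 12.54, 12.34 and 12.11 on +/+ arrays 1, 2 and 3 (log2 signal). Tal1, the gene symbol of Scl, averaged 10.84 ± 0.87 in fl/fl cells and 13.13 ± 0.27 in +/+ cells (log2 signal, SD, n = 3 each), and it is not given whether its probe lies in the deleted part. The +/+ arrays were not alike. The +/+ arrays 1 and 2 correlated more closely with each other (Pearson r = 0.995 over 16122 probes) than any other pair did. The r of +/+ array 3 was 0.984 with each of them, and 0.989, 0.984 and 0.988 with fl/fl arrays 1, 2 and 3. Its median absolute log2 difference was 0.159 and 0.164 from +/+ arrays 1 and 2, and 0.126, 0.145 and 0.142 from fl/fl arrays 1, 2 and 3. By that measure +/+ array 3 lay nearer to every fl/fl array than to its own group. Xist, the female-specific RNA that silences an X chromosome, was at 6.66, 6.95 and 10.55 on fl/fl arrays 1, 2 and 3 and at 10.55, 10.90 and 9.25 on +/+ arrays 1, 2 and 3, so its level was not alike within either group. The Y-linked Eif2s3y was at 8.67, 8.39 and 7.97 on fl/fl arrays and at 7.37, 7.64 and 8.22 on +/+ arrays. The part of either in the member differences was not tested.

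A sarcomere is the contractile unit of skeletal and heart muscle. Myosin thick filaments, held in register at the M band by myomesin, pull on actin thin filaments anchored at the Z disc by alpha-actinin, and troponin and tropomyosin on the thin filament let calcium switch the contraction on and off. Blood cells contract with related nonmuscle proteins, so megakaryocytes use nonmuscle myosin II, other actinins and other tropomyosins to build and release platelets. Scl is a basic helix-loop-helix factor that binds DNA at E-boxes, often beside a GATA site within a complex that holds GATA1.

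Of the 10 genes, 7 had a promoter in the RefSeq table of GRCm38.p6, with 9 windows of 250 bases before to 50 bases after a start site; Myo18b, Cryab and Actn3 had none there. The windows below are those of the 3 genes with the largest differences among members with a promoter and non-overlapping groups (Tpm2, Tnni1 and Tnni3) and of the 2 genes whose windows held a CArG box or CTG spaced from a GATA site (Myom1 and Csrp3). Capitals mark every match to a searched motif on either strand. In the windows of Tnni1 (chr1:135799171-135799470, plus strand), Tnni3 (chr7:4522479-4522778, minus strand) and Tpm2 (chr4:43523505-43523804, minus strand) all capitals are E-boxes, CANNTG. In that of Myom1 (chr17:71019307-71019606, plus strand) they are 3 E-boxes, AGATAA read on the other strand at -115, and a CArG box at -99, counted in bases from the start site. In that of Csrp3 (chr7:48843622-48843921, minus strand) they are 4 E-boxes and, at -82, CTGNNNNNNNNGATA read on the other strand. Csrp3 and Tnni1 each had another window, which is not printed. That of Csrp3 (chr7:48848002-48848301) held 5 E-boxes and no other searched motif. That of Tnni1 (chr1:135799261-135799560) overlaps the printed one, so the 9 windows are not all separate.
Tnni1: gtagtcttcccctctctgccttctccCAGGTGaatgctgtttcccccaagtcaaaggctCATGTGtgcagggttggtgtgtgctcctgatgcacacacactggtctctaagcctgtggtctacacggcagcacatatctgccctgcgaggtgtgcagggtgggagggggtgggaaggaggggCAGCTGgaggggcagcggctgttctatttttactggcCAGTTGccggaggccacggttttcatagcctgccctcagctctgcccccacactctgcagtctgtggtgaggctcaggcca
Tnni3: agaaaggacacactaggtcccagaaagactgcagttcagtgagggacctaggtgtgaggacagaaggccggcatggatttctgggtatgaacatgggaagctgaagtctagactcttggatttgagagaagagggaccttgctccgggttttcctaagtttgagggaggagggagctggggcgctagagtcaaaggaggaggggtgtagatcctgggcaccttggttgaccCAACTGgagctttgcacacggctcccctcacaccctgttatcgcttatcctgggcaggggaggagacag
Tpm2: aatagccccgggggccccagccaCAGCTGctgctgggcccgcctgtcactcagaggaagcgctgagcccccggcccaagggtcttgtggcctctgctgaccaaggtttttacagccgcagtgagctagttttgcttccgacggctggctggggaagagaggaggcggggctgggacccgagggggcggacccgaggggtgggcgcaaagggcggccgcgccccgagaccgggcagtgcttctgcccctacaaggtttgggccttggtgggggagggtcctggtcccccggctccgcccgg
Myom1: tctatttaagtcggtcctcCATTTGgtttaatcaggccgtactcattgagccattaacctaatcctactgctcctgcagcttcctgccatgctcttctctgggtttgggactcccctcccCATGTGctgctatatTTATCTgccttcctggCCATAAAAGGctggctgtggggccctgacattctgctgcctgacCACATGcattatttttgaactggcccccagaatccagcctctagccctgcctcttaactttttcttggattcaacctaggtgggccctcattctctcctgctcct
Csrp3: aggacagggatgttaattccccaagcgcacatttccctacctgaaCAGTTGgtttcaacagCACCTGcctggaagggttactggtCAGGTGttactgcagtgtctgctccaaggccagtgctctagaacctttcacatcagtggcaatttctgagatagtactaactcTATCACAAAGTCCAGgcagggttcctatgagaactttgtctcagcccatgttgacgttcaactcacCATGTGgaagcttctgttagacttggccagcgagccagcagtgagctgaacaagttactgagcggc

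An E-box was present in all 9 member windows and in 72.3% of the 32851 windows of all genes, so its presence separates the members little from other genes. The CArG box, the site of serum response factor, was present in 1 member window and in 1.63% of all windows. AGATAA was in 1 member window and 11.2% of all windows, CTGNNNNNNNNGATA in 1 member window and 2.28%, and TATAAA in 1 member window, that of Tnnt1, and 13.6%. The 9 member windows held no TGATAA, which was in 9.05% of all windows. They held no CTGNNNNNNNNNGATA either, which was in 2.51%. The TEAD site CATTCC and the MEF2 site were in none of them, and in 14.7% and 0.557% of all windows. These are matches of letters in the windows searched and say nothing of binding.

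The thin filament genes were higher in fl/fl cells on 4 of their 5 probes, with groups that did not overlap. The same held for 9.38% of the 16122 probes above background on at least 3 arrays. Since the genes were chosen on this difference, nothing is read from the count. Tnni1 encodes the troponin I of slow skeletal muscle, the subunit that inhibits contraction at low calcium. Its only probe was at 7.22, 7.83 and 7.21 on fl/fl arrays 1, 2 and 3, against 6.41, 6.34 and 6.43 on +/+ arrays 1, 2 and 3 (log2 signal). It was above background on all 3 fl/fl arrays and on none of the +/+ arrays, so the fold is a bound of at least 1.63-fold, higher in fl/fl cells. Here and below, such a bound sets the fl/fl mean against the mean, over +/+ arrays, of the lowest detected signal or the probe's own signal, whichever was higher.

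Tnni3 encodes the troponin I of heart muscle. Its probe was at 7.97, 8.69 and 8.21 on fl/fl arrays 1, 2 and 3, against 7.23, 7.31 and 7.38 on +/+ arrays 1, 2 and 3 (log2 signal), above background on every array. The lowest fl/fl array lay 0.58 above the highest +/+ array, and the means were 8.29 ± 0.37 in fl/fl cells and 7.31 ± 0.08 in +/+ cells (SD, n = 3 each), a log2 difference of 0.98 or 1.97-fold. Tnnt1 encodes the troponin T of slow skeletal muscle, which ties the troponin complex to tropomyosin, and it is the next protein-coding gene to Tnni3. Tnnt1 was at 8.59, 9.04 and 8.91 on fl/fl arrays, against 8.46, 8.36 and 8.48 on +/+ arrays. The gap between its groups was 0.11, small beside the range of 0.45 among fl/fl arrays, and the log2 difference was 0.41 or 1.33-fold.

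Tpm2 encodes beta-tropomyosin, which lies along the thin filament of slow muscle and also occurs in nonmuscle cells. Its brighter probe, ILMN_2487170, was at 9.06, 9.14 and 8.76 on fl/fl arrays 1, 2 and 3, against 7.72, 7.54 and 7.92 on +/+ arrays 1, 2 and 3 (log2 signal). The groups were 0.84 apart at their nearest arrays and averaged 8.99 ± 0.20 in fl/fl cells and 7.73 ± 0.19 in +/+ cells (SD, n = 3 each), a log2 difference of 1.26 or 2.40-fold. The other Tpm2 probe, ILMN_2482209, was near background: it was detected only on fl/fl array 3, at 6.80, and lay between 6.51 and 6.55 on the other 5 arrays, and its log2 difference of 0.09 was 0.01 without fl/fl array 3. The transcripts that each probe reads were not analysed here.

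**Figure D1:**
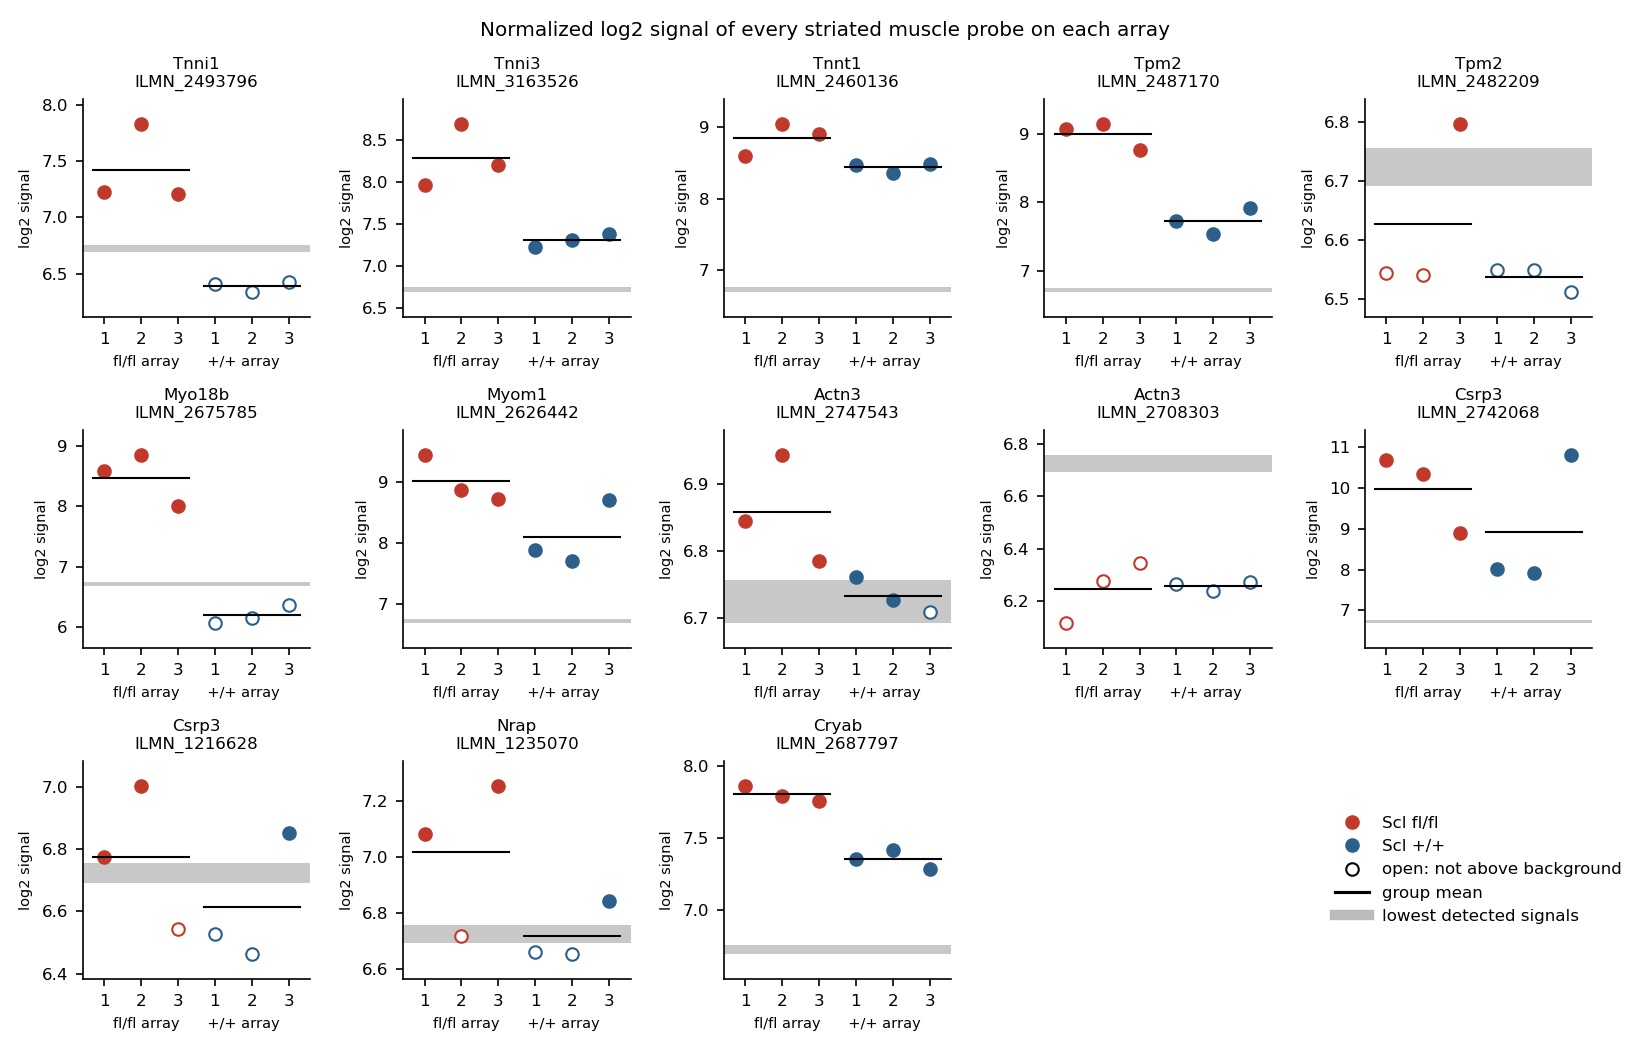
Each panel shows 1 probe, with the normalized log2 signal on the y axis (scales differ between panels) and arrays fl/fl 1 to 3 then +/+ 1 to 3 on the x axis; lines are group means, open points were not above background, and the grey band spans the lowest detected signals of the 6 arrays. Myo18b and Tnni1 lie above the band only on fl/fl arrays, whereas Csrp3 is as high on +/+ array 3, at 10.81, as on fl/fl arrays 1 and 2.

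Myo18b had the largest difference of the 13 probes. It encodes an unconventional myosin that is required for sarcomere assembly in mouse heart and in zebrafish muscle. Its probe was at 8.58, 8.85 and 8.0 on fl/fl arrays 1, 2 and 3, against 6.07, 6.16 and 6.38 on +/+ arrays 1, 2 and 3 (log2 signal). It was above background on all fl/fl arrays and on no +/+ array, which bounds the fold at 3.40 or more, higher in fl/fl cells. The measured means were 8.48 ± 0.43 in fl/fl cells and 6.20 ± 0.16 in +/+ cells (SD, n = 3 each), a log2 difference of 2.28, and the lowest fl/fl array lay 1.63 above the highest +/+ array.

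Myom1 encodes myomesin 1, which crosslinks myosin and titin at the M band. It was at 9.45, 8.88 and 8.72 on fl/fl arrays 1, 2 and 3, against 7.89, 7.71 and 8.71 on +/+ arrays 1, 2 and 3 (log2 signal). Array 3 of +/+ was level with fl/fl array 3, with 0.01 between them, and only +/+ arrays 1 and 2 were clearly lower. The log2 difference of means was 0.91, and it was 1.21 without +/+ array 3 and 0.71 without +/+ array 2.

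Among the Z disc genes, Csrp3 varied more between arrays of 1 genotype than between genotypes. Csrp3 encodes muscle LIM protein, a Z disc protein of heart and slow muscle. Its brighter probe, ILMN_2742068, was at 10.70, 10.35 and 8.89 on fl/fl arrays 1, 2 and 3, against 8.02, 7.91 and 10.81 on +/+ arrays 1, 2 and 3 (log2 signal). The highest array of all was +/+ array 3, so the groups overlapped. The log2 difference of 1.07 was smaller than the SD of 1.64 among +/+ arrays, and with 1 array left out it ran from 0.56 without +/+ array 2 to 2.01 without +/+ array 3. The dimmer probe, ILMN_1216628, was highest on fl/fl array 2, at 7.0, and on +/+ array 3, at 6.85, was above background on 2 fl/fl arrays and 1 +/+ array, and had a log2 difference of 0.16. Leaving out 1 array moved that difference between 0.05 without fl/fl array 2 and 0.28 without +/+ array 3.

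Actn3 and Nrap stayed close to background. Actn3 encodes alpha-actinin-3, the Z disc crosslinker of fast fibres, and its brighter probe, ILMN_2747543, was at 6.84, 6.94 and 6.79 on fl/fl arrays 1, 2 and 3, against 6.76, 6.73 and 6.71 on +/+ arrays 1, 2 and 3 (log2 signal). The groups were apart by 0.02, and both lay just above or among the lowest detected signals, which ran from 6.69 to 6.76 over the 6 arrays. Its log2 difference was 0.13, and 0.08 without fl/fl array 2. Its other probe, ILMN_2708303, was above background on no array and had a log2 difference of -0.01, the only negative one of the 13. Nrap, which encodes a nebulin-related protein that anchors actin while myofibrils form, was at 7.08, 6.72 and 7.25 on fl/fl arrays, against 6.66, 6.66 and 6.84 on +/+ arrays. Its groups overlapped, since fl/fl array 2 lay below +/+ array 3, and it was above background on 2 fl/fl arrays and 1 +/+ array. Its log2 difference was 0.30, and it ran from 0.18 without fl/fl array 3 to 0.45 without fl/fl array 2.

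Cryab encodes alphaB-crystallin, a small heat shock protein that protects desmin and titin in muscle and is also made elsewhere under stress. It was at 7.86, 7.80 and 7.76 on fl/fl arrays 1, 2 and 3, against 7.35, 7.42 and 7.29 on +/+ arrays 1, 2 and 3 (log2 signal). The groups were narrow and apart by 0.34, with means of 7.81 ± 0.05 in fl/fl cells and 7.35 ± 0.07 in +/+ cells (SD, n = 3 each), a log2 difference of 0.45 or 1.37-fold. Hspb2, its neighbour on the chromosome and a small heat shock gene too, was not above background on any array.

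Over all 13 probes, 12 had a higher mean in fl/fl cells and the median log2 difference was 0.45; over the 12 probes detected on at least 1 array it was 0.68. For 8 probes every fl/fl array was above every +/+ array. Over the 16122 probes that were above background on at least 3 arrays (called kept probes here), fl/fl arrays all lay above +/+ arrays in 9.38% and below them in 8.62%, 51.6% had a higher mean in fl/fl cells and the median log2 difference was 0.01. Since the genes were chosen on this difference, nothing is read from these counts. Of the 11 kept member probes, fl/fl array 2 was the highest fl/fl array for 7, fl/fl array 1 for 3 and fl/fl array 3 for 1, while +/+ array 3 was the highest +/+ array for 9.

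**Figure D2:**
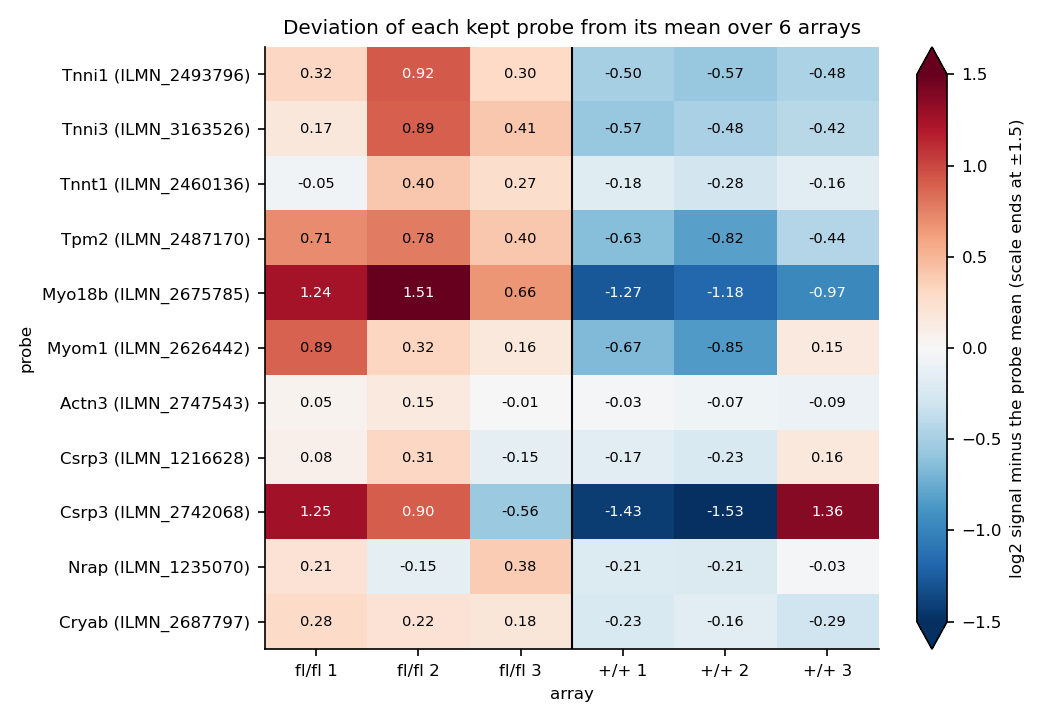
Colours and figures give the log2 signal of each kept probe (rows) on each array (columns, fl/fl left, +/+ right) minus that probe's mean over the 6 arrays. Myo18b, Tnni1, Tnni3 and Tpm2 are above their mean on every fl/fl array and below it on every +/+ array, while Csrp3 (ILMN_2742068) is at 1.36 on +/+ array 3 and -0.56 on fl/fl array 3.

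Members differed in their Pearson r with Myo18b. Since Myo18b was above background on no +/+ array, its variation among +/+ arrays is not read as a change in its RNA. Tpm2 (ILMN_2487170), Tnni1, Cryab and Tnni3 had Pearson r values of 0.99, 0.96, 0.96 and 0.94 with Myo18b over the 6 arrays, and Csrp3 (ILMN_2742068) had 0.57. Myom1 had 0.82 with Myo18b and 0.87 with Csrp3 (ILMN_2742068). Among 12214 named kept probes, those most like Myo18b were Mta3 (r = 0.999), a chromatin remodelling subunit gene, Ly6e (r = 0.996), Proser3 (r = 0.995), 8030474K03Rik (r = 0.994) and Tyms (r = 0.994), the thymidylate synthase gene. Mta3 was at 11.21, 11.33 and 10.99 on fl/fl arrays, against 9.95, 10.05 and 10.11 on +/+ arrays. Those most like Csrp3 (ILMN_2742068), a list drawn up after its values were seen, were Tyk2 (r = 0.998), a Janus kinase gene, Mindy1 (r = 0.996), G6pc3 (r = 0.996), Ubr7 (r = 0.993) and Ago2 (r = 0.993). Ago2, which encodes an Argonaute protein of the microRNA pathway, was at 9.17, 9.04 and 8.66 on fl/fl arrays, against 8.31, 8.28 and 9.11 on +/+ arrays. All these r values share the same 6 arrays and describe likeness only. Those of the probes most like Myo18b or Csrp3 are the highest of all those ranked. Those between members include the group difference on which the members were chosen, so nothing further is read from them.

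Most other sarcomere genes were below background. Of 71 other sarcomere genes listed, 60 had a probe and 25 were above background on at least 1 array. At a detection p under 0.05 a probe can pass on 1 array by chance, so this count does not show expression. Among their 108 probes 19 were kept, from 18 genes, against 16122 of 46632 on the array. These 19 were tested with limma over all kept probes. One of the 19 probes passed an adjusted p of 0.05, lower in fl/fl cells, against 0.614% of all kept probes (0.440% higher and 0.174% lower). The median log2 difference of the 19 probes was 0.06, with 11 higher and 8 lower in fl/fl cells. This list and those below leave out the members, which were chosen on this difference. No contrast between members and lists is therefore read. The probe that passed was Fhl1, which encodes a four-and-a-half LIM domain protein of muscle that other cells make as well. Fhl1 was at 10.44, 10.37 and 10.34 on fl/fl arrays 1, 2 and 3, against 10.86, 11.01 and 10.90 on +/+ arrays 1, 2 and 3 (log2 signal), with groups that did not overlap. Its log2 difference was -0.54 ± 0.09 (SE; limma adjusted p = 0.0456, from 0.0159 to 0.532 over the alternatives). The call was lost with background correction, median scaling, no scaling, the stricter filter and the replicate block, and without any 1 array other than +/+ array 3.

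The partners of the members in the filaments did not pass the test where they could be tested. Of the thin filament list, 6 of 13 genes were detected on at least 1 array, and Actc1, cardiac actin, Tnnc2, the fast troponin C, and Tmod1, a tropomodulin, were kept. Their log2 differences were 0.10, 0.09 and -0.18 (limma adjusted p = 0.653, 0.679 and 0.483). Of the thick filament and M band list, 7 of 18 genes with a probe were detected, and Myl4, Mybpc3, Obsl1 and Myh4 were kept, at -0.18, 0.12, 0.04 and -0.06 (limma adjusted p = 0.415, 0.570, 0.858 and 0.847). Of the calcium handling and muscle metabolism genes, 7 of 20 with a probe were detected and 2 were kept, with Atp2a1 among those detected but not kept. These were Eno3, the muscle enolase gene, at 0.41 (limma adjusted p = 0.322) and Jph1, a junctophilin gene, at 0.04 (limma adjusted p = 0.878). Eno3 passed without +/+ array 3, at 0.64 (limma adjusted p = 0.0105; over all alternatives it reached 0.747).

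The nonmuscle and smooth muscle relatives of the members, such as nonmuscle myosin, actinin 1 and 4 and tropomyosin 1, 3 and 4, had 39 kept probes of 21 genes. None passed by limma, against 0.614% of all kept probes, and 6 had an unadjusted p under 0.05, which 15.4% of all kept probes had. The median log2 difference was 0.03, with 22 higher and 17 lower in fl/fl cells. The smallest p belonged to Mylk, the myosin light chain kinase gene, which was at 9.61, 9.24 and 9.62 on fl/fl arrays 1, 2 and 3, against 10.13, 10.12 and 9.82 on +/+ arrays 1, 2 and 3 (log2 signal). Its log2 difference was -0.53 ± 0.14 (SE, limma adjusted p = 0.151), while its 2 other kept probes were at -0.24 and 0.13. The LIM genes Csrp2 and Csrp1, the close relatives of Csrp3, had log2 differences of -0.55 ± 0.15 and 0.43 ± 0.13 (SE, limma adjusted p = 0.172 and 0.200). Tpm4, a nonmuscle tropomyosin gene, had a log2 difference of -0.46 ± 0.18 at ILMN_2479062 (SE, limma adjusted p = 0.278). Its other kept probes were at 0.17 (ILMN_2515363, the brightest of them) and -0.03 (ILMN_2571616). The 3 probes of Actn4, an alpha-actinin gene, were at -0.50, 0.28 and 0.24 and did not pass either. Without +/+ array 3, 6 of the 39 probes passed, 3 in each direction. Among them were Csrp1 at 0.54 (limma adjusted p = 0.0307) and Mylk at -0.63 (limma adjusted p = 0.0236). Myo18a, the relative of Myo18b, also passed there, at 0.49 (limma adjusted p = 0.0325), against 0.34 over all arrays (limma adjusted p = 0.324).

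Regulators of muscle genes did not pass. Of 26 such genes with a probe, 16 were detected and 14 had 19 kept probes, with a median log2 difference of 0.04. By limma 0 of the 19 passed, against 0.614% of all kept probes. An unadjusted p under 0.05 was found for 3 of them, and 15.4% of all kept probes had one, so nothing is read from these counts. Tead2 and Mef2c, which encode factors that bind muscle gene promoters, were at -0.30 ± 0.10 and -0.52 ± 0.18 (SE, limma adjusted p = 0.223 and 0.232), with Mef2c read from ILMN_2732465; its other kept probes were at -0.05 and -0.44. Tcf4, an E protein gene, and Id2, an inhibitor of E proteins, were at -0.46 ± 0.20 and 0.23 ± 0.10 (SE, limma adjusted p = 0.320 and 0.328). Without +/+ array 3 the probes of Mef2c and Tcf4 passed, at -0.65 and -0.67 (limma adjusted p = 0.0463 and 0.0378), lower in fl/fl cells.

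**Figure D3:**
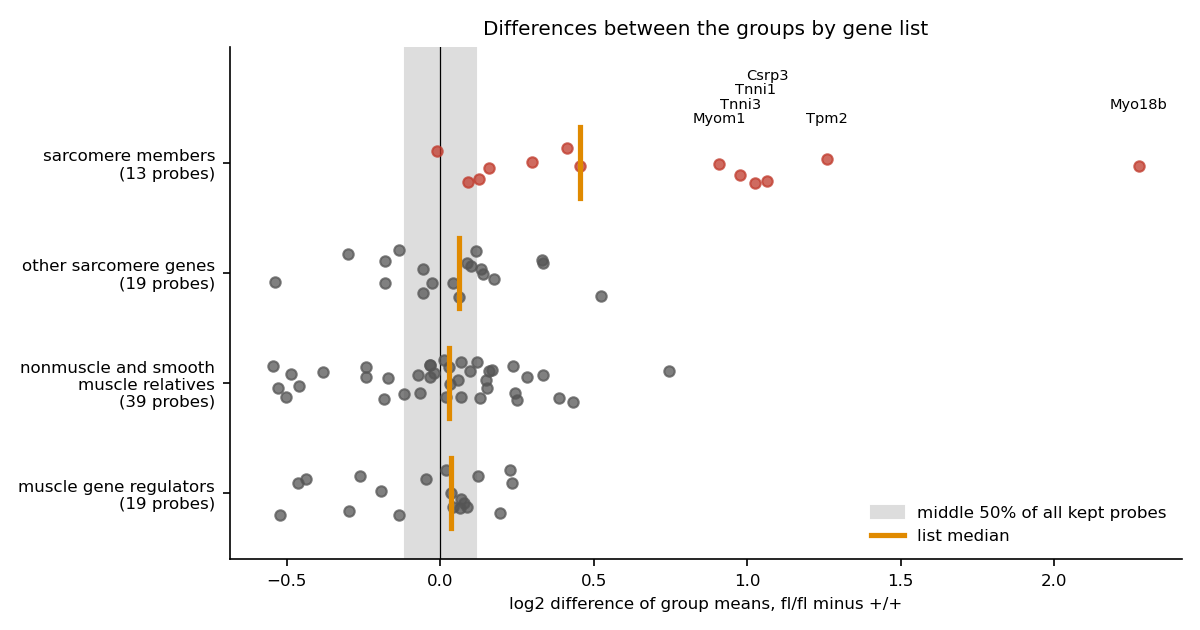
Points are probes, with the log2 difference of group means (fl/fl minus +/+) on the x axis and the gene lists as rows; all 13 member probes and the kept probes of the other lists are drawn, orange lines are list medians and the grey band holds the middle 50% of all kept probes. The members run up to 2.28, and the medians of the 3 other lists drawn lie between 0.03 and 0.06. The members were chosen on this difference and left out of the other lists, so nothing is read from the gap between them. Calcium handling and metabolism genes, with 2 kept probes, are not drawn.

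Markers of muscle cells were mostly not above background, and some of those detected were higher on fl/fl arrays. Of 9 skeletal muscle fibre markers with a probe, 4 were detected on at least 1 array; Acta1 and Mb, which encode skeletal actin and myoglobin, were detected on none, and Ckm, muscle creatine kinase, only on fl/fl array 2 at 6.90. Atp2a1, the calcium pump of fast fibres, was detected on 2 fl/fl arrays and no +/+ array. It was at 6.82, 7.19 and 6.71 on fl/fl arrays 1, 2 and 3, against 6.61, 6.57 and 6.40 on +/+ arrays 1, 2 and 3. The groups did not overlap, and it was not kept for the test. Tnnc2 was detected on 3 fl/fl and 3 +/+ arrays, at a log2 difference of 0.09 with groups that did not overlap. Myh4 (ILMN_1236860) was detected on 1 fl/fl and 2 +/+ arrays and was at -0.06. The summed linear signal of the 2 kept skeletal muscle probes ran from 206 to 228 on fl/fl arrays and from 207 to 225 on +/+ arrays. Of 9 heart muscle markers, 3 were detected (Nppa, Tnnt2 and Actc1), and Myh6 and Myl7 were not. Nppa, the atrial natriuretic peptide gene, was detected at ILMN_3161547 on 3 fl/fl arrays and 1 +/+ array. The groups of that probe did not overlap, and its log2 difference was 0.16 (limma adjusted p = 0.422). The other Nppa probe, ILMN_1257292, was detected on no array. Among all kept probes, every fl/fl array lay above every +/+ array in 9.38%. Tnnt2, the troponin T of heart muscle, was detected only on fl/fl array 2, at 7.35. The 2 kept heart probes summed to between 221 and 247 on fl/fl arrays and between 207 and 219 on +/+ arrays. Of 8 satellite cell and myoblast markers 1 was detected, Vcam1, which bone marrow cells also make, while Pax7, Myf5, Myod1 and Myog were not above background on any array.

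Markers of other bone marrow cells varied between arrays. Of 11 stroma, pericyte and smooth muscle markers with a probe 2 were detected, with 1 kept, and Col1a1, collagen I, was at 6.42, 7.37 and 9.02 on fl/fl arrays 1, 2 and 3 and at 6.65, 6.42 and 6.26 on +/+ arrays. The other 9 genes, among them Col1a2, Sparc, Cxcl12, Lepr, Acta2 and Myh11, were detected on no array. The kept probe, Pdgfrb, had a summed signal from 104.5 to 118.7 on fl/fl arrays and from 98.9 to 114 on +/+ arrays. Hba-a1, a globin gene, was at 9.09, 10.77 and 8.98 on fl/fl arrays and at 8.51, 8.19 and 8.75 on +/+ arrays, and all 7 erythroid markers with a probe were detected. The summed signal of the 6 kept erythroid probes ran from 2214 to 3723 on fl/fl arrays and from 2104 to 2435 on +/+ arrays. Of these 6 probes 4 had a higher and 2 a lower mean in fl/fl cells, with a median log2 difference of 0.07. None passed (smallest limma adjusted p = 0.262), and Tfrc, the transferrin receptor gene, was at -0.19 with groups that did not overlap. The summed signal of the 9 kept neutrophil probes, with 9 of 9 marker genes detected, ran from 7638 to 9053 on fl/fl arrays and from 7124 to 15028 on +/+ arrays. All 9 of these probes had a lower mean in fl/fl cells, with a median log2 difference of -0.32, and none passed (smallest limma adjusted p = 0.122). Among them Prtn3, the proteinase 3 gene, was at -0.61 with groups that did not overlap, and S100a8 and S100a9 were at -0.78 and -0.64. The summed signal of the 5 kept mast cell and basophil probes, with 5 of 9 marker genes detected, ran from 688 to 1040 on fl/fl arrays and from 719 to 889 on +/+ arrays. These probes moved in both directions, 4 higher and 1 lower in fl/fl cells, and none passed (smallest limma adjusted p = 0.120). Prss34 was at -1.14 and Cpa3 at 0.68, each with groups that did not overlap. The summed signal of the 7 kept endothelial probes, with 6 of 7 marker genes detected, ran from 3033 to 3326 on fl/fl arrays and from 3034 to 3314 on +/+ arrays. Their log2 differences ran from -0.49 to 0.51, with 3 higher and 4 lower in fl/fl cells, and none passed (smallest limma adjusted p = 0.104). The summed signal of the 8 kept megakaryocyte probes ran from 37942 to 45272 on fl/fl arrays and from 48398 to 51848 on +/+ arrays. Of these 8 probes 6 had a lower mean in fl/fl cells, with a median log2 difference of -0.21, and none passed (smallest limma adjusted p = 0.104). Vwf and Treml1 were at -0.45 and -0.28, with groups that did not overlap, and Ppbp was at -0.50. Itga2b, the integrin alpha IIb gene, was at 12.27, 12.28 and 11.82 on fl/fl arrays and at 10.31, 10.38 and 12.36 on +/+ arrays, with +/+ array 3 again beside the fl/fl arrays as for Csrp3. The part of any of these in the member differences was not tested.

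The next protein-coding genes on either side of the members, 18 genes that are not members themselves, were looked at after the member values were known. Of these, 9 had 12 kept probes. By limma 0 of the 12 passed, against 0.614% of all kept probes. An unadjusted p under 0.05 was found for 6, which 15.4% of all kept probes had. Tln1, the talin gene that neighbours Tpm2, had a log2 difference of 0.38 ± 0.12 (SE, limma adjusted p = 0.199). Phlda3, which neighbours Tnni1, had 0.35 ± 0.13 (SE, limma adjusted p = 0.266). Ctsf, which neighbours Actn3, had 0.32 ± 0.11 (SE, limma adjusted p = 0.241). Zdhhc13, which neighbours Csrp3, was lower in fl/fl cells at -0.34 ± 0.13 (SE, limma adjusted p = 0.262). The groups did not overlap for Tln1, Phlda3, Ctsf, Zdhhc13 and the Lpin2 probes ILMN_2667827 and ILMN_1239707. Of these only Zdhhc13 was lower in fl/fl cells, and 18.0% of all kept probes did not overlap in either direction. Over the alternatives the lowest limma adjusted p was 0.0206 for Tln1, 0.0225 for Zdhhc13 and 0.0481 for Lpin2 (ILMN_2667827). The 4 kept probes of Lpin2, which neighbours Myom1, ran from 0.09 to 0.44, and the neighbours of Myo18b, Gm6588 and Grk3, were above background on no array.

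**Figure D4:**
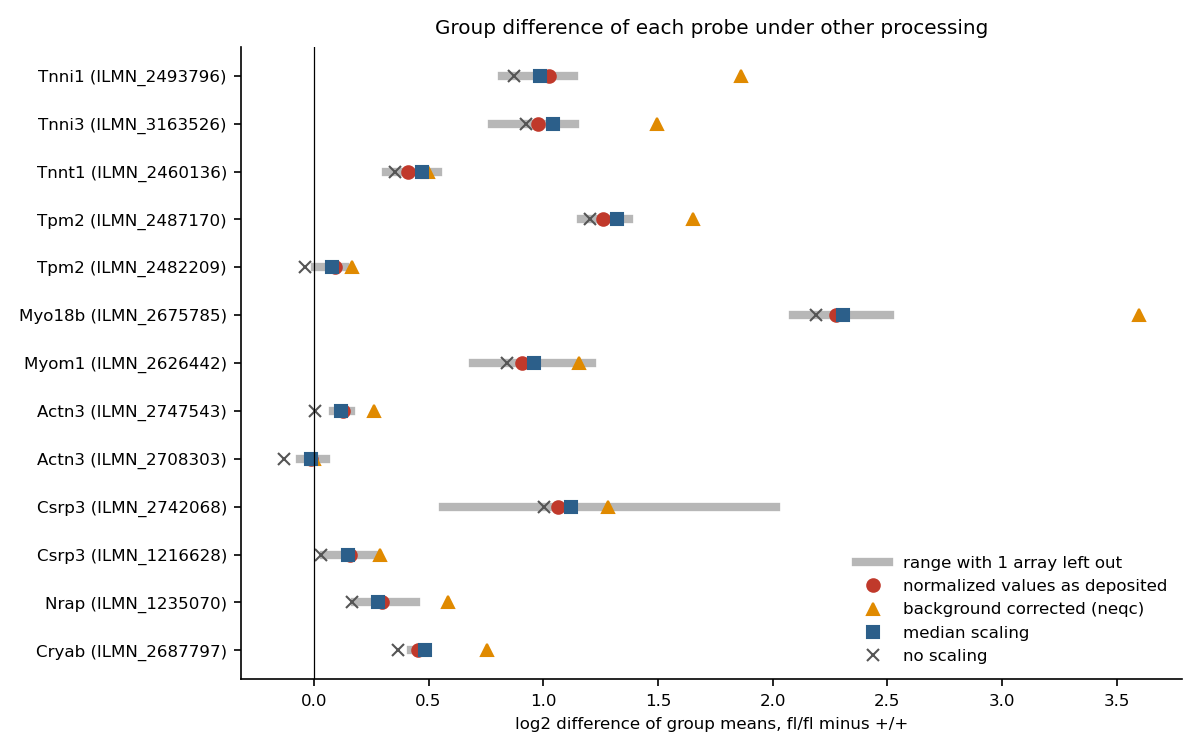
For each member probe (rows) the x axis gives the log2 difference of group means, fl/fl minus +/+, with the deposited normalized values (circles), after background correction (triangles), with median scaling (squares) and with no scaling (crosses); grey bars span the values with 1 array left out. Background correction moves Myo18b to 3.60, against 2.28, and Csrp3 (ILMN_2742068) has the widest bar, from 0.56 to 2.01.

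Background correction before normalization widened most member differences, and those of Myo18b, Tnni1, Tnni3, Cryab, Nrap, Actn3 (ILMN_2747543), Csrp3 (ILMN_1216628) and Tpm2 (ILMN_2482209) by more than 1.5 times, to 3.60, 1.86, 1.49, 0.75, 0.59, 0.26, 0.29 and 0.17 on the log2 scale. With no scaling between arrays the differences of Actn3 (ILMN_2747543) and of the dimmer Tpm2 probe were 0.00 and -0.04, that of the undetected Actn3 probe was -0.13, and those of Csrp3 (ILMN_1216628) and Nrap were 0.03 and 0.16.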

How the data were processed

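The authors deposited 2 tables of the 6 arrays, both holding log2 values: one of log2 signals not scaled between arrays and one of normalized log2 signals with the same quartiles in every column, differing by at most 0.0865 from a plain quantile normalization of the unscaled signals. The submitters' processing notes name limma; no other step is stated there. A detection score deposited beside each signal has a header naming a p-value but is 1 for bright probes (lowest rank correlation with its own array's signal 0.997, against at most 0.931 with another array's), so 1 minus the score served as detection p. Array medians ran from 6.43 to 6.65 before normalization and were 6.46 after it. Between 15183 and 16338 probes per array had a detection p under 0.05, and the number of arrays limits the precision.

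The normalized values were used as deposited. Probes detected on at least 3 of 6 arrays (16122) were fitted with limma 3.58.1 in R 4.3.3 (lmFit, eBayes, two-sided, Benjamini-Hochberg adjustment over all of them, threshold 0.05), with no block, and an adjusted p given without another setting comes from this model; the others come from the same model refitted under the setting named. Quantile normalization removes any change that all genes share. Symbols came from the platform annotation and were looked up by gene identifier in RefSeq (GRCm38.p6), which changed 0 of 29976; 10 probes had several symbols and 16646 none. That table also gave the neighbours, and a RefSeq table of the same build the promoters. Gene lists excluded the members.

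The members and lists were chosen with earlier results of these data known. Genes named were the members, called list genes or else the 4 with the smallest p of each list, the first markers of each marker list and the 5 probes most like Myo18b; the other genes named were chosen after their values were seen. The test was tried on simulated data first. Alternatives were neqc background correction with an offset of 16, median scaling, no scaling, no filter, a stricter filter (detection p under 0.01 on all 6 arrays), a trend and robust prior, the replicate number as a block, and leaving out each array. Batches could not be examined, since neither labels nor headers name any.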

Additional observations from a re-analysis of the deposited data

How the results depend on the processing

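With the deposited normalized values 99 probes passed over the whole array, 71 higher and 28 lower in fl/fl cells. The count was 2 with median scaling, 28 with no scaling and 3 with the replicate number as a block, and ran from 11 to 1618 with 1 array left out; the cause was not tested. The 1618 came without +/+ array 3, and the counts were 27 and 11 without +/+ arrays 1 and 2 and 20, 41 and 41 without fl/fl arrays 1, 2 and 3. Of the 73 probes called after background correction, 66 were among the 99. Among other sarcomere probes 1 passed, and 0 with background correction, median scaling, no scaling, the stricter filter and the replicate block, with 0 to 2 when 1 array was left out. Nonmuscle relatives and muscle regulators had 0 calls under every alternative except without +/+ array 3, so that the ranges with 1 array left out were 0 to 6 and 0 to 2. The median member difference was 0.68, and 0.95 with background correction, 0.45 with all 13 probes, 0.94 with the 6 probes that passed the stricter filter, and between 0.53 and 0.75 with 1 array left out. Of the 13 member differences, 7 with background correction and 4 with no scaling moved by more than 1 SD. The labels do not say whether the replicate numbers pair the samples. Deviations from the group means of same-numbered arrays correlated at 0.11, -0.33 and -0.22, which cannot decide it with 3 arrays per group. Why the block gave fewer calls was not tested. Signals within about the lowest detected range, as for Actn3 and Nrap, limit what differences can be measured.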
